A study of Homo sapiens with 12 samples.

Results

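The lysosomal cathepsins described here are CTSA, CTSB, CTSC, CTSD, CTSF, CTSH, CTSL, CTSO, CTSS and CTSZ. They were taken by their symbols from a table of read counts per gene, and they are 10 of its 58735 genes, of which 31413 had at least 1 count. All 10 had counts, and all 10 passed the filter on low counts that left 16133 genes for testing.

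Cathepsins are proteases of the lysosome, the acidic compartment in which cells break down proteins taken up from outside or delivered by autophagy. Most are cysteine proteases of the papain family, while CTSD is an aspartic protease and CTSA a serine carboxypeptidase. They are made as inactive precursors, tagged with mannose 6-phosphate, carried to the lysosome by receptors and activated there by proteolytic cleavage, and cystatins restrain the cysteine members. Many lysosomal genes carry a CACGTG sequence, called an E-box, near their start, to which the transcription factors TFEB and TFE3 bind.

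The libraries came from KP4 and MiaPaca2, established cell lines of human pancreatic ductal adenocarcinoma. Cells in DMEM with 10% FBS received 100 nM trametinib, an inhibitor of the kinases MEK1 and MEK2, or its solvent DMSO, for 48 h. The 4 groups were KP4 with trametinib, KP4 with DMSO, MiaPaca2 with trametinib and MiaPaca2 with DMSO, each of 3 poly(A)-selected RNA-seq libraries. Each line is a single line of its tumour type, and whether the 3 libraries of a group are separate cultures is not in the labels. The p-values therefore refer to the spread among libraries within groups, which may be technical. The 4 groups shared the estimate of that spread, so the libraries of each line entered the tests of the other.

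Total counts ran from 20293688 to 28018129 per library. The share of counts from mitochondrial genes was 5.48 to 5.75% in KP4 with trametinib against 4.16 to 4.38% in KP4 with DMSO, and 4.02 to 4.25% in MiaPaca2 with trametinib against 2.25 to 3.32% in MiaPaca2 with DMSO, and its part in the results was not tested. Replicate 2 of MiaPaca2 with DMSO stood apart from its group: chi-square per degree of freedom was 14.5 and 13.3 against its partners, 7.70 between those partners, and 2.02 to 2.89 within the other groups. Of 8 markers of pancreatic duct epithelium, the summed level ran from 237 to 246 CPM (the read count scaled by library size) in KP4 with trametinib, 372 to 383 in KP4 with DMSO, 853 to 861 in MiaPaca2 with trametinib and 1844 to 2218 in MiaPaca2 with DMSO. Among them EPCAM stayed under 1 CPM in all 12 libraries, and KRT19 was at 2.68 to 5.34 CPM in the KP4 libraries. The sum does not stand for all 8: by the test described below, 4 rose and 2 fell with trametinib in KP4, and 3 rose and 4 fell in MiaPaca2. Of all genes tested, 23.9% rose and 24.1% fell in KP4, and 34.4% rose and 29.7% fell in MiaPaca2. KRT18 fell in both lines (log2 -0.53 and -1.80, adjusted p = 7.1e-10 and 1.09e-21), as did SOX9 (-2.21 and -1.54, adjusted p = 8.31e-22 and 6.97e-20). CDH1 rose in both (3.39 and 3.95, adjusted p = 6.69e-12 and 3.56e-09) from low levels. It had 0.394 to 0.594 CPM in KP4 with DMSO and 0.0443 to 0.213 CPM in MiaPaca2 with DMSO. With trametinib it had 4.45 to 5.27 CPM in KP4 and 2.12 to 2.62 CPM in MiaPaca2. The part of these markers in the results was not tested.

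Promoter windows of 250 bases before the gene's start came from a set of RefSeq promoters (GRCh38.p14). The set used here held windows for 7 of the 10 genes: CTSA, CTSC, CTSD, CTSF, CTSH, CTSL and CTSZ. It held none for CTSB, CTSO and CTSS, whose promoters were therefore not searched. The E-box CACGTG, which reads the same on both strands, occurred in 3 of these 7 windows, those of CTSA, CTSD and CTSF, and in 6.49% of 27305 promoters of that length. The AP-1 motif TGANTCA, searched on both strands, was found in 0 of the 7 and in 6.6% of all promoters. The stretches of 30 bases around each E-box are shown on the gene's strand, 5′ to 3′, with the E-box in capitals, because these 3 genes share it. The start is that of RefSeq. In GENCODE 29, whose gene extents are printed below, all 3 genes begin farther upstream, so the stretches lie within those extents, and 250, 65 and 124 of the 250 window bases of CTSA, CTSD and CTSF lie in annotated exons.

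CTSA, chr20:45891289-45891318, plus strand: ctgtCACGTGgcgccggagttCACGTGact
CTSD, chr11:1763957-1763986, minus strand: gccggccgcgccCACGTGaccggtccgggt
CTSF, chr11:66568712-66568741, minus strand: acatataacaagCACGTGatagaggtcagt
CTSF, chr11:66568640-66568669, minus strand: ccctgcgcgcccCACGTGcctcctgtaaac

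CTSA holds 2 E-boxes within a single stretch, CTSD holds 1, and CTSF holds 2 in separate stretches. A match says only that these letters are present, and no binding was measured.

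In KP4, 5 of the 10 cathepsins rose with trametinib (CTSA, CTSB, CTSD, CTSO and CTSS), 2 fell (CTSC and CTSL) and 3 did not pass the test (CTSF, CTSH and CTSZ). Passing means an adjusted p under 0.05 in edgeR's quasi-likelihood test. Of all genes tested in KP4, 48.1% passed, 23.9% higher and 24.1% lower. In MiaPaca2, 7 rose (CTSA, CTSB, CTSC, CTSF, CTSH, CTSO and CTSS), 1 fell (CTSD) and 2 did not pass (CTSL and CTSZ), beside 64.0% of all genes, 34.4% higher and 29.7% lower. The median log2 fold change of the 10 was 0.38 in KP4 and 0.42 in MiaPaca2, against 0.00 and 0.05 over all genes tested. CTSA, CTSB, CTSO and CTSS were higher in both lines, as were 18.9% of all genes tested. CTSC and CTSD moved in opposite directions in the 2 lines, which 2.74% of all genes tested did. The libraries of the 2 groups did not overlap for 7 of the 10 in KP4, beside 60.1% of all genes tested, and for all 10 in MiaPaca2, beside 64.4%. In whole cultures, a change in the level per cell and a change in the make-up of the cells cannot be told apart.

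**Figure D1:**
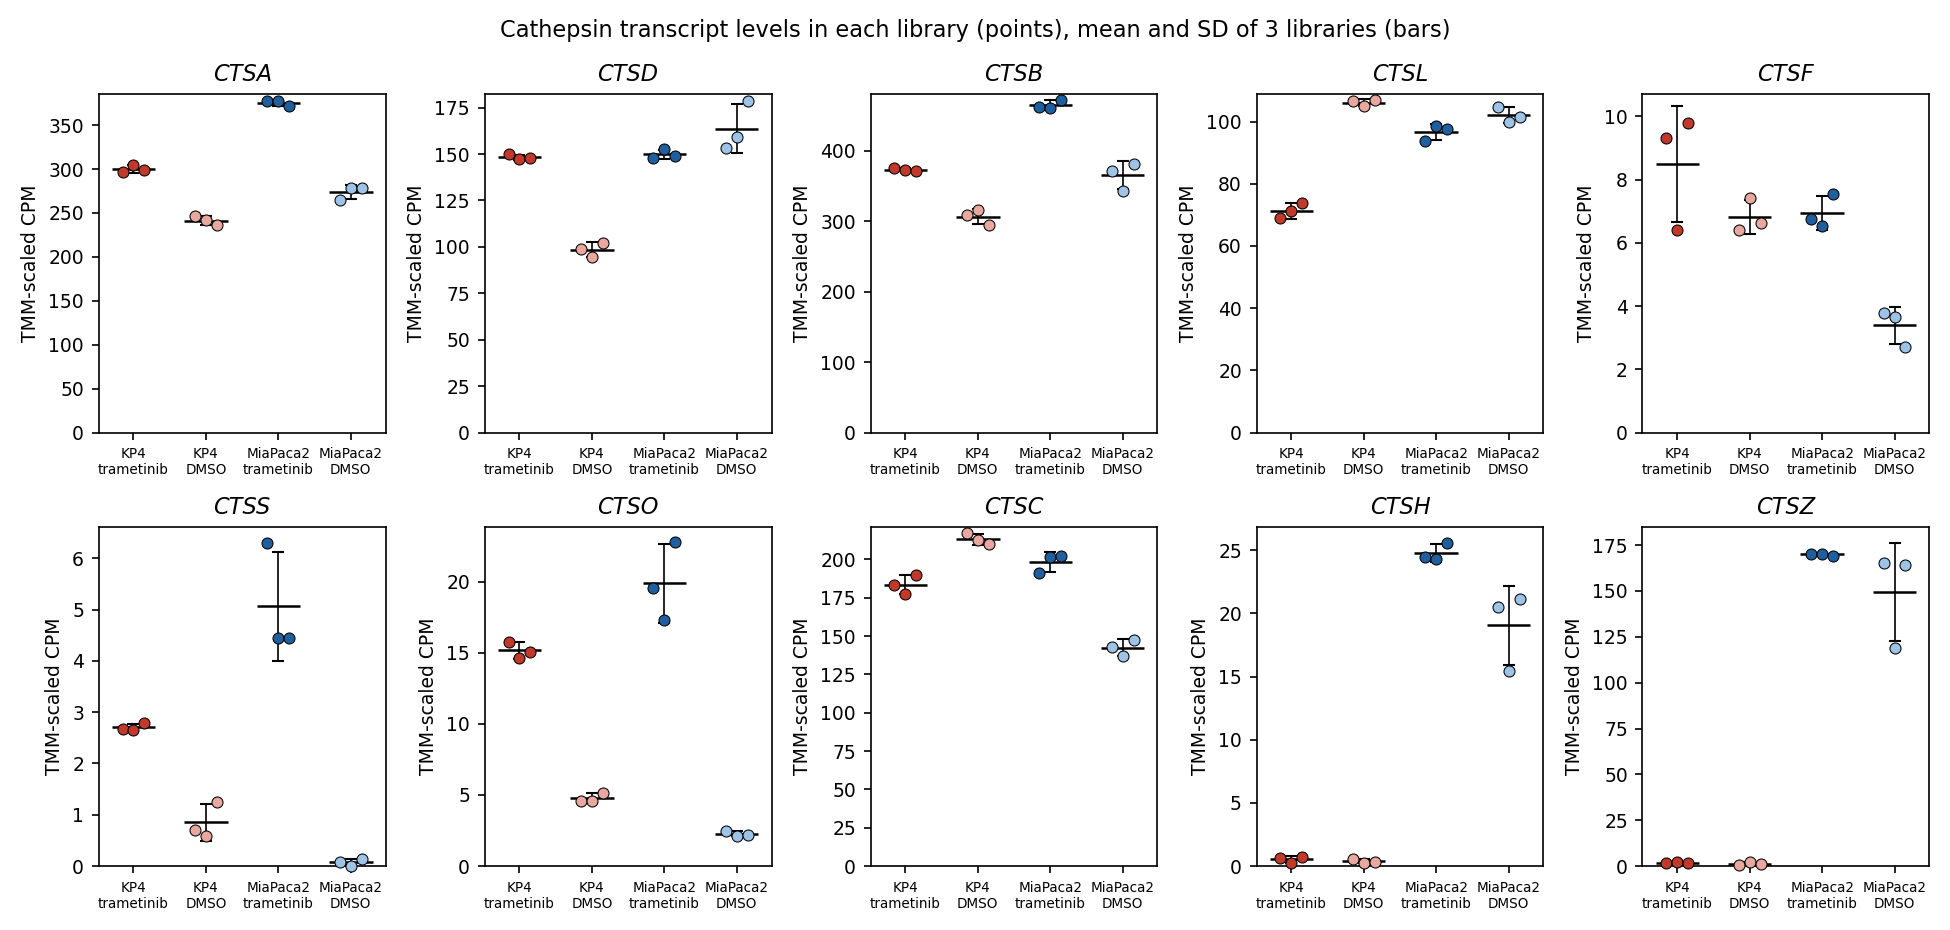
TMM-scaled CPM of each cathepsin in each of the 12 libraries (points), with the mean and SD of 3 libraries (horizontal and vertical bars), for KP4 with trametinib, KP4 with DMSO, MiaPaca2 with trametinib and MiaPaca2 with DMSO from left to right; each y axis is linear and starts at 0. CTSS and CTSO stand higher with trametinib in both lines, while CTSH and CTSZ stand high only in the MiaPaca2 panels, at 15.5 CPM or more for CTSH and 119 CPM or more for CTSZ.

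CTSA (ENSG00000064601, chr20:45890144-45898820, plus strand, GRCh38) trims amino acids from the carboxyl end of peptides and also shields the lysosomal enzymes NEU1 and GLB1 from degradation. Its level was 297, 305 and 299 CPM in KP4 with trametinib, against 246, 242 and 236 CPM in KP4 with DMSO. It was 377, 378 and 372 CPM in MiaPaca2 with trametinib, against 265, 279 and 278 CPM in MiaPaca2 with DMSO. Every trametinib library lay above every DMSO library of its line. The log2 fold change was 0.32 ± 0.04 (SE) in KP4 (adjusted p = 5.93e-08) and 0.46 ± 0.04 in MiaPaca2 (adjusted p = 2.94e-11). Its exons overlap those of PLTP, NEURL2 and an antisense gene on the opposite strand, which held 5777, 474 and 183 counts over the 12 libraries beside 88986 for CTSA. Since the use of strand in counting is not given in the sources used here, reads of these genes cannot be told apart where they overlap. PLTP was the gene nearest to CTSH over the 12 libraries (root mean square difference 0.393, against a spread of 2.82). CTSH was far lower in KP4, so the PLTP counts lay mainly in MiaPaca2.

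CTSD (ENSG00000117984, chr11:1752752-1764573, minus strand) is the main aspartic endopeptidase of the lysosome. Its level was 149.8, 147 and 148 CPM in KP4 with trametinib, against 98.7, 94.7 and 102 CPM in KP4 with DMSO. In MiaPaca2 it was 148, 153 and 149 CPM with trametinib, against 153.2, 159 and 178 CPM with DMSO. The trametinib libraries of both lines thus lay within 147 to 153 CPM, above all KP4 DMSO libraries and below all MiaPaca2 DMSO libraries. CTSD rose by 0.59 ± 0.05 on the log2 scale in KP4 (adjusted p = 2.26e-10) and fell by 0.13 ± 0.05 in MiaPaca2 (adjusted p = 0.0258). The fall in MiaPaca2 depended on single libraries: without replicate 3 of MiaPaca2 with DMSO the log2 fold change was -0.06 (adjusted p = 0.204), and the call was also lost without trametinib replicate 1 (0.0829) or 3 (0.0675) and when counts were scaled by library size only (0.0591). The difference of the responses, KP4 minus MiaPaca2, was 0.72 ± 0.07 (adjusted p = 8.4e-09) and passed under every alternative tried. CTSD overlaps the antisense gene PRADX and a gene on its own strand, with 114 and 55 counts beside 41851 for CTSD.

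CTSB (ENSG00000164733, chr8:11842524-11869448, minus strand) is a cysteine protease that cuts both within peptides and from their carboxyl end. Levels were 375, 373 and 371 CPM in KP4 with trametinib, against 309, 315.5 and 295 CPM in KP4 with DMSO. They were 462, 460.2 and 472 CPM in MiaPaca2 with trametinib, against 370.5, 343 and 381.5 CPM in MiaPaca2 with DMSO. Neither line's groups overlapped, and the log2 fold changes were 0.28 ± 0.04 in KP4 (adjusted p = 1.17e-06) and 0.35 ± 0.04 in MiaPaca2 (adjusted p = 1.87e-08). Their difference was -0.06 ± 0.06 (adjusted p = 0.402), which did not pass the test.

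CTSL (ENSG00000135047, chr9:87725519-87731393, plus strand) is a cysteine endopeptidase of broad specificity. It stood at 68.8, 71.1 and 73.7 CPM in KP4 with trametinib, against 106.5, 105.0 and 107 CPM in KP4 with DMSO. In MiaPaca2 it stood at 93.8, 98.7 and 97.5 CPM with trametinib, against 105, 99.8 and 101.5 CPM with DMSO. The KP4 trametinib libraries were the lowest of all 12, and the MiaPaca2 groups were narrowly apart. CTSL fell by 0.58 ± 0.05 on the log2 scale in KP4 (adjusted p = 7.76e-11), while the MiaPaca2 value of -0.08 ± 0.05 did not pass (adjusted p = 0.136). In MiaPaca2 the call was gained under DESeq2 (0.0398), under DESeq2's size factors in edgeR (0.0421) and without replicate 1 of KP4 with trametinib (0.0316). The difference of the responses was -0.50 ± 0.06 (adjusted p = 1.02e-06). All 7 annotated CTSL pseudogenes were listed at 0 counts, and the treatment of reads shared with them or with the paralog CTSV is not given in the sources used here.

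CTSF (ENSG00000174080, chr11:66563463-66568841, minus strand) is a cysteine protease known for cutting the invariant chain in macrophages. It was low, at 9.31, 6.39 and 9.79 CPM in KP4 with trametinib, against 6.42, 7.42 and 6.62 CPM in KP4 with DMSO. In MiaPaca2 the values were 6.74, 6.52 and 7.55 CPM with trametinib, against 3.79, 3.66 and 2.70 CPM with DMSO. Replicate 2 of KP4 with trametinib fell below all 3 KP4 DMSO libraries, whereas the MiaPaca2 groups did not overlap. CTSF rose by 1.03 ± 0.18 on the log2 scale in MiaPaca2 (adjusted p = 2.26e-05). In KP4 the log2 fold change was 0.32 ± 0.14 (adjusted p = 0.0648), and without that replicate it was 0.48 (adjusted p = 0.00446). The call in KP4 was also gained with only the KP4 libraries in the fit (0.0163) and without replicate 2 of MiaPaca2 with DMSO (0.0424). The difference of the responses was -0.71 ± 0.23 (adjusted p = 0.0189). It was no longer called without KP4 DMSO replicate 2 (0.0531), MiaPaca2 DMSO replicate 3 (0.0724) or MiaPaca2 trametinib replicate 3 (0.0569).

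CTSS (ENSG00000163131, chr1:150730196-150765957, minus strand) is a cysteine protease best known from antigen-presenting cells, where it trims the invariant chain of class II molecules. Counts were 76, 71 and 75 in KP4 with trametinib, against 18, 15 and 35 in KP4 with DMSO. They were 155, 90 and 109 in MiaPaca2 with trametinib, against 2, 0 and 3 in MiaPaca2 with DMSO. The gene was thus near the lower limit of detection in untreated MiaPaca2, and its highest levels, 4.44 to 6.30 CPM, were in the same line with trametinib. In summed, depth-scaled counts, MiaPaca2 with trametinib held 71.7 times as much as MiaPaca2 with DMSO (exact 95% interval 30.4 to 222, counting error only). In KP4 the same ratio was 3.13 (2.38 to 4.18). The fitted log2 fold change was 6.07 ± 0.43 in MiaPaca2 (adjusted p = 8.74e-13) and 1.64 ± 0.28 in KP4 (adjusted p = 1.54e-05), and the difference was -4.42 ± 0.69 (adjusted p = 9.56e-06). The sizes rest on the 5 counts of MiaPaca2 with DMSO: without its replicate 3 the fold change in MiaPaca2 was 6.76 and the difference -5.12, and both still passed.

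The summed level of 9 immune markers was 4.44 to 6.57 CPM in MiaPaca2 with trametinib against 4.39 to 6.93 CPM in MiaPaca2 with DMSO, and 1.34 to 1.63 CPM in KP4 with trametinib against 1.83 to 2.46 CPM in KP4 with DMSO. TYROBP, CD3E and MS4A1 were at 0 in all libraries. The summed ranges overlapped in MiaPaca2, and in KP4 the sum was lower with trametinib. Of the 9, 3 were tested. In MiaPaca2 CD14, a monocyte receptor for bacterial lipopolysaccharide, had 0.204 to 0.494 CPM with trametinib and 0.596 to 2.31 CPM with DMSO, and it fell (log2 -2.17 ± 0.47, adjusted p = 0.000244). PTPRC, which encodes the leukocyte marker CD45, made up much of the sum in MiaPaca2, with 3.01 to 5.43 CPM with trametinib and 2.13 to 4.29 CPM with DMSO (0.43 ± 0.21, adjusted p = 0.0813). ITGAM, an integrin chain of myeloid cells, had 0.734 to 1.30 CPM with trametinib and 0.213 to 0.907 CPM with DMSO (0.72 ± 0.45, adjusted p = 0.163). In KP4 PTPRC fell (-1.27 ± 0.40, adjusted p = 0.0107), and neither CD14 nor ITGAM passed. The part of these markers in the CTSS result was not tested.

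CTSO (ENSG00000256043, chr4:155924118-155953917, minus strand) is a little-studied cysteine endopeptidase of the papain family. It had 15.8, 14.7 and 15.1 CPM in KP4 with trametinib, against 4.59, 4.58 and 5.15 CPM in KP4 with DMSO. It had 19.6, 17.3 and 22.8 CPM in MiaPaca2 with trametinib, against 2.48, 2.13 and 2.22 CPM in MiaPaca2 with DMSO. All 6 trametinib libraries exceeded all 6 DMSO libraries. CTSO rose 3.17-fold in KP4 (log2 1.66 ± 0.12, adjusted p = 1.42e-11) and 8.77-fold in MiaPaca2 (log2 3.13 ± 0.14, adjusted p = 3.38e-16). The difference of the responses was -1.47 ± 0.21 (adjusted p = 4.32e-06), and under the alternatives tried it ran from -1.55 to -1.36.

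CTSC (ENSG00000109861, chr11:88293592-88337787, minus strand) removes dipeptides from the amino end of proteins and activates the granule proteases of immune cells. Its level was 183, 177 and 189.7 CPM in KP4 with trametinib, against 217, 212.5 and 209.9 CPM in KP4 with DMSO. In MiaPaca2 it was 191, 202 and 202.5 CPM with trametinib, against 143, 137 and 148 CPM with DMSO. The groups did not overlap in either line, and they stood in opposite order. CTSC fell by 0.22 ± 0.04 on the log2 scale in KP4 (adjusted p = 9.45e-05) and rose by 0.48 ± 0.04 in MiaPaca2 (adjusted p = 2.88e-10). The difference was -0.69 ± 0.06 (adjusted p = 9e-10).

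CTSH (ENSG00000103811, chr15:78921058-78949574, minus strand) is an aminopeptidase, and it was close to undetected in KP4. Counts were 18, 6 and 20 in KP4 with trametinib against 15, 6 and 10 in KP4 with DMSO. In MiaPaca2 they were 602, 493 and 627 with trametinib against 497, 363 and 478 with DMSO. The lines were far apart, the KP4 groups overlapped, and the MiaPaca2 groups, scaled to CPM, did not (24.3 to 25.6 CPM with trametinib, 15.5 to 21.2 CPM with DMSO). CTSH rose by 0.38 ± 0.10 on the log2 scale in MiaPaca2 (adjusted p = 0.00208), and by 0.25 without the library that stood apart, DMSO replicate 2, which was the lowest (adjusted p = 0.0147). The KP4 value was 0.44 ± 0.54 (adjusted p = 0.534), which the counts leave wide, and so was the difference of the responses, 0.06 ± 0.52 (adjusted p = 0.957).

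CTSZ (ENSG00000101160, chr20:58995185-59007247, minus strand) is a carboxypeptidase whose precursor also binds integrins. It had 1.41, 2.35 and 1.85 CPM in KP4 with trametinib, against 0.475, 2.10 and 0.931 CPM in KP4 with DMSO. In MiaPaca2 it had 170.2, 170.2 and 169 CPM with trametinib, against 165, 119 and 164 CPM with DMSO. The KP4 groups overlapped; those of MiaPaca2 did not, and the lowest DMSO value was again that of replicate 2. Neither response passed the test, at 0.67 ± 0.60 in KP4 (adjusted p = 0.403) and 0.18 ± 0.13 in MiaPaca2 (adjusted p = 0.242). Without replicate 2 of MiaPaca2 with DMSO the MiaPaca2 value was 0.04 (adjusted p = 0.535). With a library left out, the KP4 value ran from 0.32 (without KP4 DMSO replicate 1) to 1.37 (without KP4 DMSO replicate 2), and neither passed. The difference of the responses was 0.49 ± 0.62 (adjusted p = 0.594), and it ran from 0.14 to 1.19 in the same way.

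**Figure D2:**
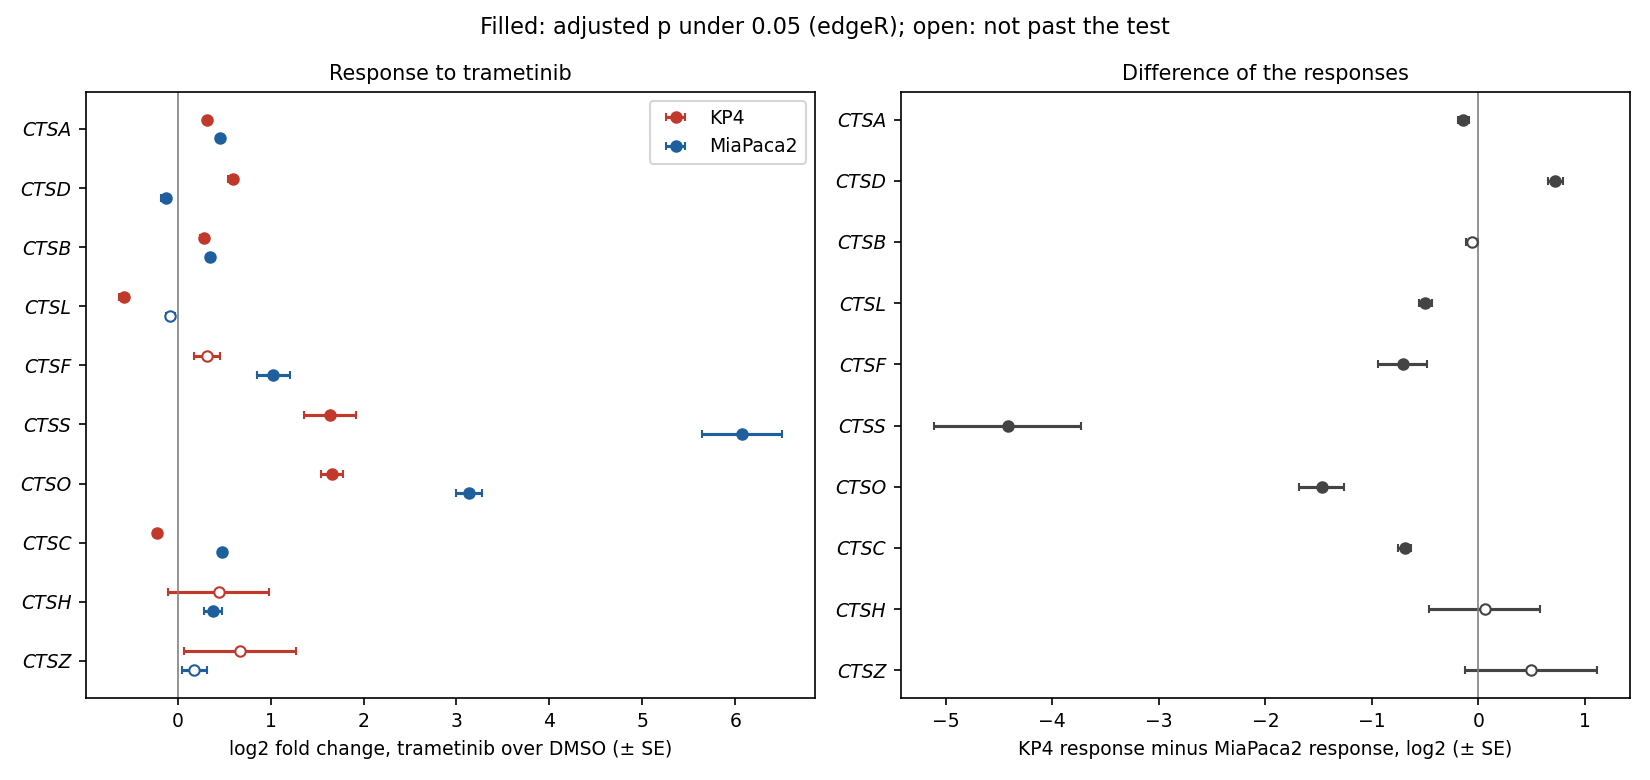
Left, log2 fold change of each cathepsin with trametinib over DMSO in KP4 (red) and MiaPaca2 (blue). Right, the KP4 response minus the MiaPaca2 response. Bars are ± 1 SE, derived from edgeR's F statistic, and filled points passed the test. CTSS and CTSO lie farthest right in MiaPaca2, at 6.07 and 3.13, and CTSD and CTSC have opposite signs in the 2 lines.

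The difference of the responses passed the test for 7 of the 10 cathepsins, 1 with a higher value in KP4 (CTSD) and 6 with a lower one (CTSA, CTSC, CTSF, CTSL, CTSO and CTSS). Of all genes tested, 35.7% passed, 16.0% higher in KP4 and 19.7% lower. The median difference of the 10 was -0.32, against -0.05 over all genes tested. For CTSA the value was -0.14 ± 0.05 (adjusted p = 0.0351), and it lost the call under 11 of the alternatives, with adjusted p-values up to 0.412 (without replicate 1 of KP4 with trametinib). The 2 responses and the comparisons of the lines share libraries, so their values are given side by side only.

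Between the lines with DMSO, 4 cathepsins were higher in KP4 than in MiaPaca2 (CTSC, CTSF, CTSO and CTSS), 5 were lower (CTSA, CTSB, CTSD, CTSH and CTSZ), and CTSL did not pass. This stood beside 63.2% of all genes, 32.0% higher and 31.2% lower. With trametinib none of the 10 was higher in KP4, 8 were lower, and CTSD and CTSF did not pass, beside 56.3% of all genes, 26.5% higher and 29.8% lower. The median log2 difference of the 10, KP4 over MiaPaca2, was -0.36 with trametinib and -0.06 with DMSO, against -0.01 and 0.02 over all genes tested. The lines did not overlap for 8 of the 10 with trametinib, beside 64.4% of all genes, and for all 10 with DMSO, beside 66.1%.

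CTSZ and CTSH gave the widest gaps between the lines. CTSZ had 153 counts in KP4 and 11787 in MiaPaca2 over the trametinib libraries, and scaled to depth it was 91.3-fold lower in KP4 (exact 95% interval 77.8 to 107.7). With DMSO it had 92 counts in KP4 and 10506 in MiaPaca2, 128-fold lower in KP4 (104.5 to 159). The intervals in this paragraph cover counting error only, not the spread between libraries. For CTSZ the KP4 DMSO libraries held 12, 54 and 26 counts. The fitted log2 values were -6.51 ± 0.24 with trametinib (adjusted p = 3.64e-09) and -7.00 ± 0.26 with DMSO (adjusted p = 3.08e-09), the second of which was -7.70 without replicate 2 of KP4 with DMSO. CTSH had 44 counts in KP4 and 1722 in MiaPaca2 with trametinib, 46.4-fold lower in KP4 (34.4 to 64.0), and 31 and 1338 counts with DMSO, 48.5-fold lower (34.0 to 71.6). The change of these gaps with the drug is the difference of the responses given above, which did not pass for either gene.

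For CTSS, CTSO and CTSC the order of the lines was opposite with and without the drug. With trametinib CTSS was lower in KP4 than in MiaPaca2 (log2 -0.92 ± 0.19, adjusted p = 0.000145), and with DMSO it was higher (3.51 ± 0.69, adjusted p = 6.52e-05, and 4.21 without replicate 3 of MiaPaca2 with DMSO). For CTSO the log2 values were -0.40 ± 0.09 with trametinib (adjusted p = 0.000729) and 1.07 ± 0.19 with DMSO (adjusted p = 2.28e-05). For CTSC they were -0.11 ± 0.04 with trametinib (adjusted p = 0.0235) and 0.58 ± 0.04 with DMSO (adjusted p = 6.42e-12). The CTSC call with trametinib was lost under 8 alternatives, with adjusted p-values up to 0.235 (without replicate 1 of KP4 with trametinib). The other 3 libraries whose omission ended it were replicate 2 of KP4 and replicates 2 and 3 of MiaPaca2 with trametinib, and it was also lost with either other scaling, without a filter and under DESeq2.

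CTSD went the other way, to levels that did not differ beyond their spread. It was lower in KP4 than in MiaPaca2 with DMSO (log2 -0.73 ± 0.05, adjusted p = 1.76e-12), and with trametinib the value was -0.01 ± 0.05 (adjusted p = 0.822), with a sign that changed with the scaling. CTSF was higher in KP4 with DMSO (1.00 ± 0.18, adjusted p = 2.64e-05), and with trametinib it was 0.29 ± 0.15 (adjusted p = 0.0916), which was 0.46 without replicate 2 of KP4 with trametinib (adjusted p = 0.00642). CTSL was 0.06 ± 0.05 with DMSO (adjusted p = 0.278) and lower in KP4 with trametinib (-0.44 ± 0.05, adjusted p = 1.03e-08). CTSA and CTSB were lower in KP4 in both states, both at -0.32 ± 0.04 with trametinib, and at -0.18 ± 0.04 and -0.25 ± 0.04 with DMSO. The part of reads from the overlapping gene PLTP in the CTSA values was not tested.

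**Figure D3:**
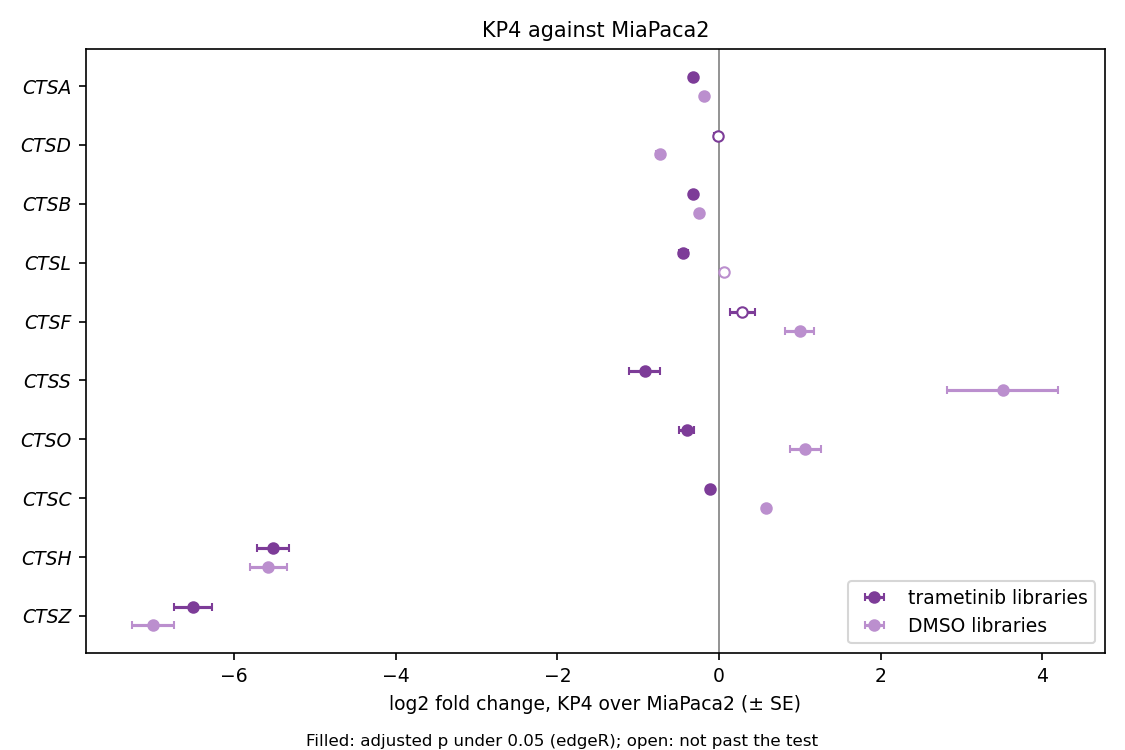
Log2 fold change of each cathepsin in KP4 over MiaPaca2 among the trametinib libraries (dark) and the DMSO libraries (light). Bars are ± 1 SE, derived from edgeR's F statistic, and filled points passed the test. CTSH and CTSZ lie between -5.52 and -7.00 in both states, while CTSS, CTSO and CTSC lie on opposite sides of 0.

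Ordered by level over the 4 groups, MiaPaca2 with trametinib was highest for CTSA, CTSB, CTSH, CTSO, CTSS and CTSZ. KP4 with DMSO was highest for CTSC and CTSL, MiaPaca2 with DMSO for CTSD, and KP4 with trametinib for CTSF. Neighbours in these orders overlapped between KP4 with trametinib and MiaPaca2 with DMSO for CTSB, between the 2 trametinib groups for CTSD, between KP4 with trametinib and KP4 with DMSO for CTSH and CTSZ, and among all groups but MiaPaca2 with DMSO for CTSF. For CTSA, CTSC, CTSL, CTSO and CTSS no neighbouring groups overlapped. The share of all genes tested with all 4 groups apart was not counted. In the comparisons of 2 groups given above, 60.1 to 66.1% of all genes tested were apart.

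Summed over the 10 genes, cathepsin transcripts made up 1105 ± 6.25 CPM in KP4 with trametinib and 979.5 ± 13.7 CPM in KP4 with DMSO (SD, n = 3 each). They made up 1512 ± 11.7 CPM in MiaPaca2 with trametinib and 1221 ± 60.3 CPM in MiaPaca2 with DMSO. The 4 ranges did not overlap. Since CPM grows with transcript length, the make-up was compared as CPM per kb of summed exon length. In KP4 with trametinib CTSA, CTSB and CTSD led, with 25.0, 24.5 and 23.2% of the summed CPM per kb, and CTSL held 14.7%. In KP4 with DMSO CTSL held 24.6%, CTSB and CTSA 22.6% each, and CTSD 17.3%.

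In MiaPaca2 CTSZ led on this scale, with 25.2 ± 0.228% with trametinib and 25.9 ± 3.16% with DMSO, against 0.448 and 0.315% in KP4 with trametinib and with DMSO. CTSA followed in MiaPaca2 with trametinib at 19.4%, and CTSD in MiaPaca2 with DMSO at 18.6%. CTSO, CTSS, CTSF and CTSH each stayed under 3% of the per-kb sum in every group. The leading member depended on the length used: per kb of the longest transcript, CTSB led in KP4 with DMSO (26.9%, with CTSL at 16.6%) and CTSA in MiaPaca2 with trametinib (23.3%, with CTSZ at 21.6%).

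**Figure D4:**
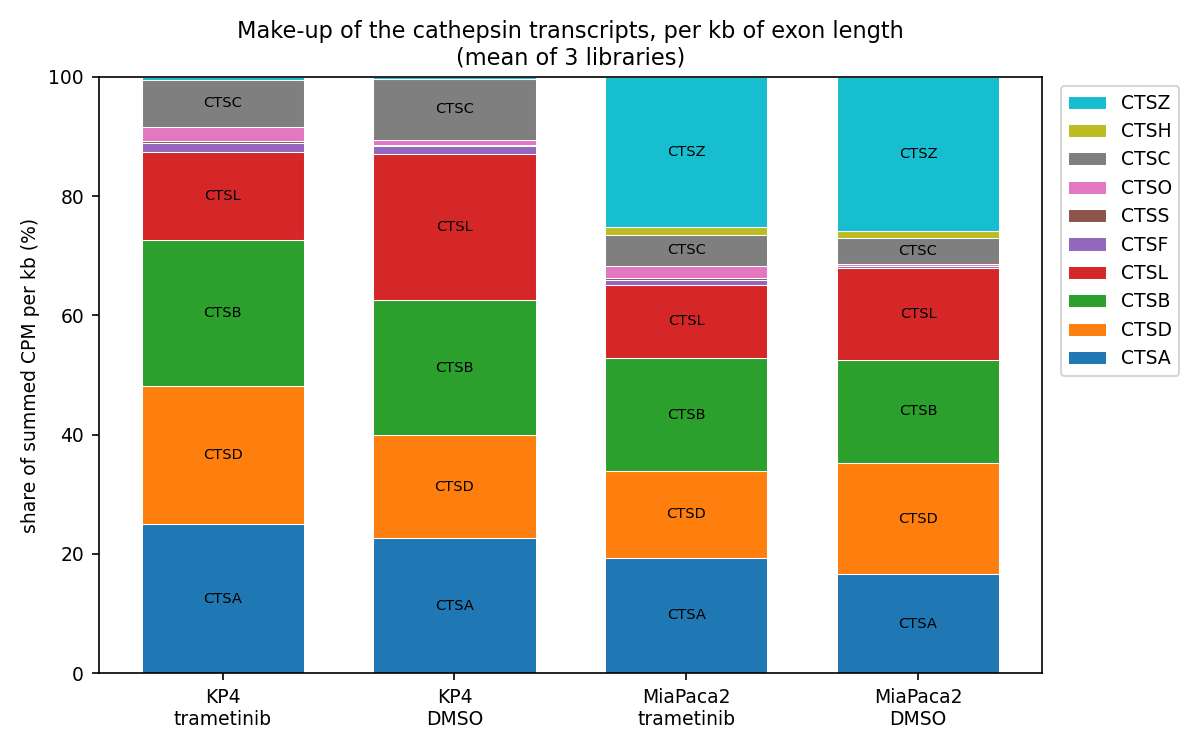
Share of each cathepsin in the summed CPM per kb of exon length (y axis, %), as the mean of 3 libraries for KP4 with trametinib, KP4 with DMSO, MiaPaca2 with trametinib and MiaPaca2 with DMSO. CTSZ holds 25.2 and 25.9% of the MiaPaca2 bars and 0.448 and 0.315% of the KP4 bars, and CTSL holds 14.7% in KP4 with trametinib and 24.6% in KP4 with DMSO.

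Of 5 other cathepsin genes, 2 were tested. CTSV, a close paralog of CTSL, had 195 to 198 CPM in KP4 with trametinib against 131 to 137 CPM in KP4 with DMSO, and 108 to 117 CPM in MiaPaca2 with trametinib against 60.1 to 66.8 CPM in MiaPaca2 with DMSO. It rose in both lines, by 0.55 ± 0.04 on the log2 scale in KP4 (adjusted p = 9.22e-11) and by 0.79 ± 0.05 in MiaPaca2 (adjusted p = 2.39e-13), while CTSL did not rise in either. CTSK, the collagen-cutting cathepsin of osteoclasts, was at 1.51 to 1.98 CPM in all groups and did not pass in KP4 (-0.10 ± 0.22, adjusted p = 0.741) or in MiaPaca2 (0.20 ± 0.23, adjusted p = 0.445). CTSE and CTSW were below the filter, each with at most 10 counts in any library, and CTSG was at 0.

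Of 12 inhibitor genes (cystatins and serpins), 4 had a count and 2 were tested. CSTB, the cytosolic cystatin B, rose in KP4 (0.28 ± 0.05, adjusted p = 1.12e-05) and fell by 0.14 ± 0.04 in MiaPaca2 (adjusted p = 0.00714), and the difference of the responses was 0.42 ± 0.06 (adjusted p = 7.44e-06). Its level was 136 to 141 CPM in KP4 with trametinib against 111 to 116 CPM in KP4 with DMSO, and 214 to 227 CPM in MiaPaca2 with trametinib against 227.5 to 254 CPM in MiaPaca2 with DMSO. CST3, the secreted cystatin C, did not pass in KP4 (0.09 ± 0.08, adjusted p = 0.407) or in MiaPaca2 (-0.06 ± 0.08, adjusted p = 0.529).

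All 6 genes of a list of maturation enzymes and partner hydrolases rose in both lines, beside 18.9% of all genes tested. Like the cathepsins and the other lists here, this list was chosen with earlier results of these data known. Its counts are therefore not independent of the data. Their median log2 fold change was 0.52 in KP4 and 0.99 in MiaPaca2, against 0.00 and 0.05 over all genes. GRN, whose progranulin precursor is cut into granulins in the lysosome, rose by 0.86 ± 0.04 in KP4 and 1.32 ± 0.04 in MiaPaca2 (adjusted p = 3.6e-15 and 1.73e-19). NEU1, the sialidase that CTSA protects, rose by 0.66 ± 0.06 and 1.24 ± 0.07 (1.73e-09 and 2.23e-14). LGMN, the legumain that cuts several cathepsins into their chains, rose by 0.28 ± 0.05 and 0.98 ± 0.05 (0.000109 and 1.86e-15). PSAP, the precursor of the saposins, rose by 0.41 ± 0.04 and 1.00 ± 0.04 (2.77e-09 and 3.17e-17). GLB1, the galactosidase bound by CTSA, rose by 0.26 ± 0.05 and 0.40 ± 0.05 (0.000236 and 3.53e-07), and TPP1, a tripeptidyl peptidase, by 0.62 ± 0.05 and 0.93 ± 0.05 (1.11e-10 and 2.11e-14). In 5 of the 6 the rise was smaller in KP4 than in MiaPaca2 by the test of the difference, and for GLB1 the difference did not pass (-0.13 ± 0.08, adjusted p = 0.186). Of all genes tested, 19.7% were lower in KP4 by that test.

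Of 9 genes for mannose 6-phosphate tagging and sorting, 5 rose and 1 fell in KP4, and 4 rose and 2 fell in MiaPaca2, with median log2 fold changes of 0.31 and -0.06. Of all genes tested, 23.9% rose and 24.1% fell in KP4 and 34.4% rose and 29.7% fell in MiaPaca2, with medians of 0.00 and 0.05, so that the MiaPaca2 median of the 9 lay below that of all genes. GNPTAB, the phosphotransferase that starts the tag, rose by 0.55 ± 0.05 in KP4 and 0.51 ± 0.06 in MiaPaca2 (adjusted p = 3.75e-09 and 1.35e-08), and IGF2R, the large mannose 6-phosphate receptor, by 0.53 ± 0.04 and 0.33 ± 0.04 (4.5e-12 and 1.98e-08). GNPTG, a subunit of the phosphotransferase, rose by 0.34 ± 0.08 and 0.38 ± 0.07 (0.000632 and 4.45e-05). The sorting adaptor GGA1 fell in both lines, by 0.35 ± 0.06 in KP4 and 0.51 ± 0.06 in MiaPaca2 (3.42e-05 and 1e-07), and the difference did not pass (0.177). Its relative GGA2 rose by 0.37 ± 0.05 in KP4 (1.66e-06) and did not pass in MiaPaca2 (-0.06 ± 0.05, adjusted p = 0.353), with a difference of 0.43 ± 0.07 (4.62e-05).

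Of 8 lysosomal membrane genes, 5 rose and 2 fell in KP4 and 7 rose and 1 fell in MiaPaca2, with median log2 fold changes of 0.36 and 0.47. All genes tested had medians of 0.00 and 0.05, with 23.9% higher and 24.1% lower in KP4 and 34.4% higher and 29.7% lower in MiaPaca2. SCARB2, a receptor that carries glucocerebrosidase, rose by 0.51 ± 0.05 in KP4 and 1.25 ± 0.05 in MiaPaca2 (adjusted p = 1.71e-09 and 1.36e-17). LAMP2, a membrane glycoprotein needed for autophagy, rose by 0.58 ± 0.05 in both (1.35e-10 and 8.19e-11). LAPTM4A rose by 0.41 ± 0.05 in KP4 and 0.57 ± 0.05 in MiaPaca2 (2.05e-07 and 2.27e-10), and the calcium channel MCOLN1 by 0.34 ± 0.08 and 0.60 ± 0.09 (0.00169 and 7.35e-06). The difference between the lines did not pass for LAPTM4A (0.0835) or MCOLN1 (0.104).

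**Figure D5:**
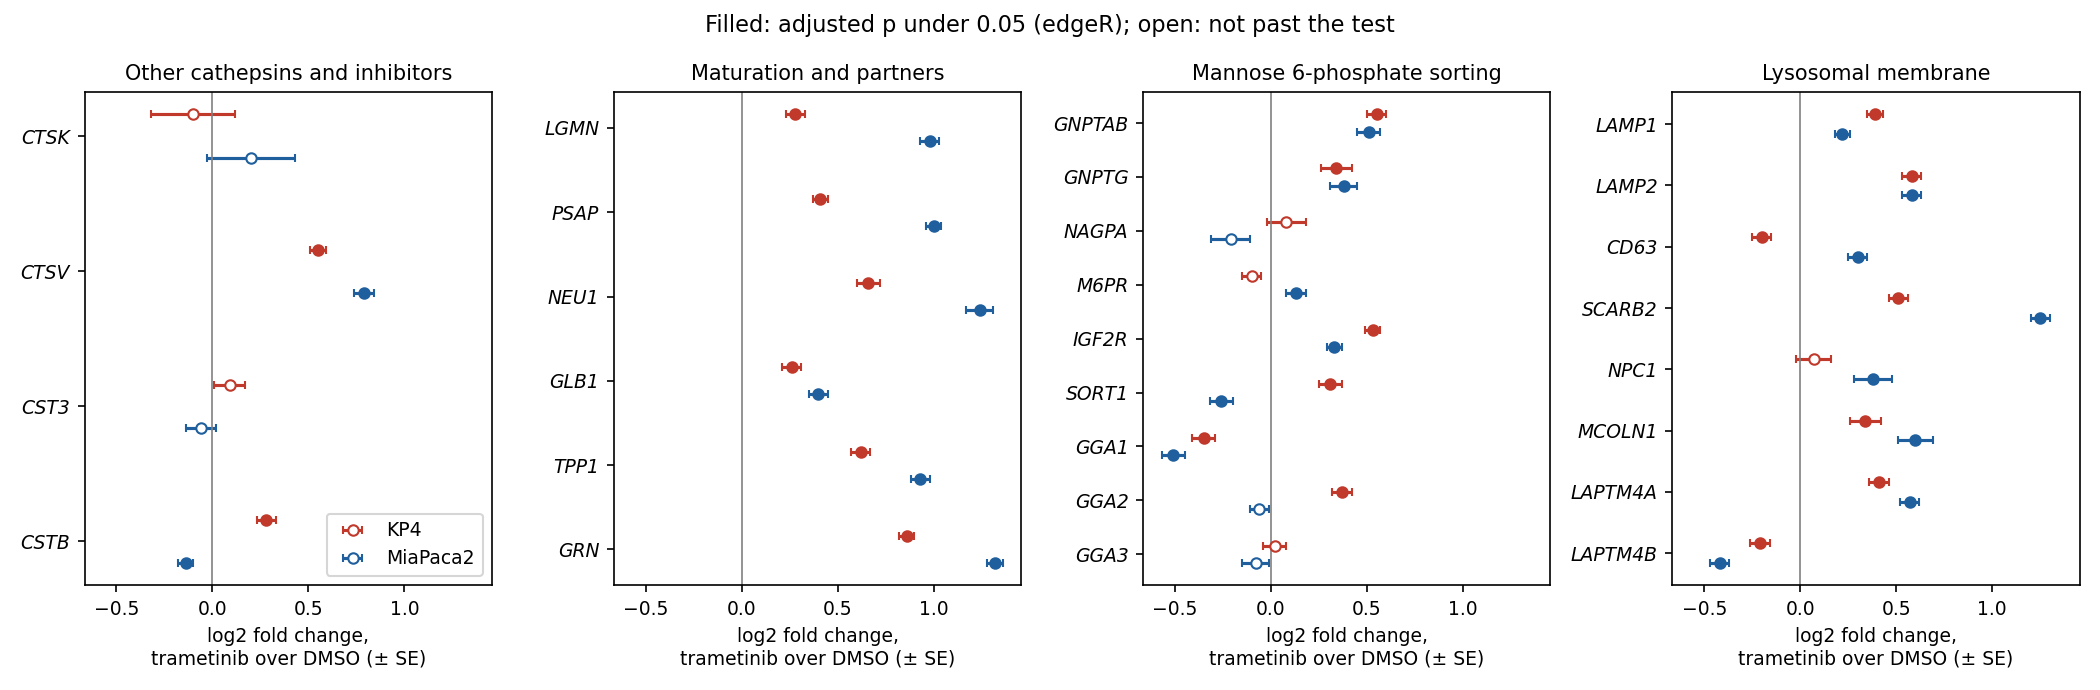
Log2 fold change with trametinib over DMSO in KP4 (red) and MiaPaca2 (blue) for the tested genes of 4 groups related to cathepsins. Bars are ± 1 SE, derived from edgeR's F statistic, and filled points passed the test. All 6 maturation and partner genes lie to the right of 0 in both lines, from 0.26 (GLB1 in KP4) to 1.32 (GRN in MiaPaca2), while CSTB lies on opposite sides.

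Of the 4 genes of the TFEB family, 3 were tested, and 1 rose and 1 fell in KP4, while 2 rose in MiaPaca2, beside 23.9% higher and 24.1% lower of all genes in KP4 and 34.4% higher in MiaPaca2. TFEB rose by 0.84 ± 0.08 in KP4 and 0.94 ± 0.11 in MiaPaca2 (adjusted p = 6.24e-09 and 2.64e-08), MITF fell by 0.82 ± 0.18 in KP4 (0.000448), and TFE3 rose by 0.49 ± 0.05 in MiaPaca2 (9.6e-10). In the other line neither passed, at 0.09 ± 0.22 for MITF in MiaPaca2 (0.752) and 0.10 ± 0.04 for TFE3 in KP4 (0.0581).

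Of 7 class II antigen processing genes, among them the CTSS substrate CD74, 5 were tested, and 1 rose in KP4 while 3 rose and 1 fell in MiaPaca2. The shares of all genes tested were 23.9% higher in KP4 and, in MiaPaca2, 34.4% higher and 29.7% lower. CD74, the invariant chain, had 14.6, 12.4 and 13.8 CPM in KP4 with trametinib against 2.46, 2.21 and 1.25 CPM in KP4 with DMSO, and 16.1, 16.6 and 18.4 CPM in MiaPaca2 with trametinib against 3.46, 5.45 and 3.10 CPM in MiaPaca2 with DMSO. It rose by 2.80 ± 0.18 in KP4 and 2.09 ± 0.15 in MiaPaca2 (adjusted p = 1.51e-12 and 9.26e-12). In MiaPaca2 the peptide-loading chain HLA-DMB rose by 1.67 ± 0.37 (adjusted p = 0.000414) and HLA-DRA fell by 1.26 ± 0.31 (0.00101), both under 4 CPM.

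The genes most like each cathepsin were those with the smallest root mean square difference of log2 CPM, centred on the gene's mean, over the 12 libraries. ZBTB4 was nearest to CTSA (0.0414, against a spread of 0.234 for CTSA itself), ILRUN to CTSB (0.0495, against 0.217), TKT to CTSD (0.0560, against 0.288) and PPP1R18 to CTSL (0.0738, against 0.229). SH3RF2 was nearest to CTSC (0.0847, against 0.222), PPP2R3A to CTSF (0.165, against 0.532) and SAMD11 to CTSO (0.197, against 1.26). The absolute difference was larger for the members with low counts in a group, whose own spread was also larger: 0.707 between CTSS and SYNPO2 (against 2.25), 0.393 between CTSH and PLTP (against 2.82) and 0.464 between CTSZ and RGS5 (against 3.47). No cathepsin was among the 2 genes nearest to another.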

How the data were processed

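The file deposited by the authors holds raw, whole-number gene counts of the 12 libraries. STAR, DESeq2 and GRCh38 (hg38) are named in the submitters' processing notes. Versions, counting program, annotation, strand setting and handling of multiply mapped reads were not given in the sources used here. Per the labels' protocols, RNA was purified with a PureLink kit and libraries were made with the Tecan Universal mRNA Plus kit. Every row named a gene, and every column matched a sample. Positions and lengths came from GENCODE 29, where all 58735 identifiers were present.

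Genes were filtered with filterByExpr, scaled with TMM and tested with edgeR 4.0.16 (R 4.3.3; quasi-likelihood, robust, 1 mean per group over all 12 libraries, n = 3 per group), with Benjamini-Hochberg adjustment over the 16133 genes tested and a threshold of 0.05. The coefficient of variation among libraries beyond counting error, which edgeR calls biological, was 5.47%. It is 1 value over all groups, and the spread it measures may be technical. Each log2 fold change has an approximate standard error (SE), its absolute value divided by the square root of the test's F statistic. The SE of a difference comes from its own test, not from the SEs of the 2 responses. CPM values are TMM-scaled. Exact intervals of ratios of summed counts are at 95% and cover counting error only. The fit was checked on simulated data, with genes changed in KP4 only. There edgeR recovered 75 of 100 genes changed 1.5-fold and 73 of 100 changed 2-fold. It made 7 false calls in KP4 and 0 calls in MiaPaca2. The simulated spread was the same in all groups, unlike the uneven spread seen in MiaPaca2 with DMSO. Only 200 of 15717 genes were changed there, whereas 48.1% of all genes tested passed in KP4. Each simulated gene started from 1 mean over all groups, so genes near the floor in a single group were not covered. Alternatives were other scalings and filters, DESeq2 1.42.0, limma-voom 3.58.1, no robust shrinkage, fewer libraries in the fit, a replicate block and leaving out each library.

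The members and gene lists were chosen with earlier results of these data known. Beside all members, the text names the other detected cathepsins, LGMN, PSAP, NEU1, GLB1, CST3, CSTB and, per further list and line, the 3 largest changes past the test. The fibroblast and endothelial marker lists summed to 10.5 to 10.8 and 1.56 to 1.83 CPM in KP4 with trametinib, 6.85 to 8.24 and 1.48 to 2.18 in KP4 with DMSO, 217 to 229 and 1.53 to 2.90 in MiaPaca2 with trametinib, and 72.5 to 122.7 and 1.95 to 2.39 in MiaPaca2 with DMSO; their part in the results was not tested. Most of the fibroblast sum in MiaPaca2 was COL1A2, at 205 to 217 CPM with trametinib and 67.9 to 119 CPM with DMSO. COL1A1 had 11.0 to 11.7 and 3.84 to 5.14 CPM there, and DCN, LUM and PDGFRA had at most 0.247 CPM in any library. The fibroblast sum thus does not stand for the whole list. Promoter sequences are from RefSeq (GRCh38.p14).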

Additional observations from a re-analysis of the deposited data

Results flagged for a closer look

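For 20 of the named genes the responses of the 2 lines differed by edgeR's test of the difference itself, given here as the KP4 response minus the MiaPaca2 response on the log2 scale. Among the cathepsins the values were 0.72 for CTSD, -0.14 for CTSA, -0.50 for CTSL, -0.69 for CTSC, -0.71 for CTSF, -1.47 for CTSO and -4.42 for CTSS. Of these, CTSC and CTSD changed in opposite directions in the lines, and CTSA lost the call under 11 alternatives. Among the maturation and partner genes and CTSV the values were -0.71 for LGMN, -0.59 for PSAP, -0.59 for NEU1, -0.46 for GRN, -0.30 for TPP1 and -0.24 for CTSV. CSTB, which rose in KP4 and fell in MiaPaca2, had 0.42. The sorting genes GGA2 and IGF2R had 0.43 and 0.21, the membrane gene SCARB2 -0.73, the TFEB relatives TFE3 and MITF -0.39 and -0.91, and CD74 0.71. Of all genes tested, 35.7% differed between the lines in this way. Many of the named genes were picked for large changes in these same data, so the 20 cannot be compared with that share.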

How the results depend on the processing

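The number of cathepsins past the test was 7 in KP4 (7 to 8 over the alternatives), 8 in MiaPaca2 (7 to 9), 7 for the difference (5 to 7), 9 between the lines with DMSO (9 in each) and 8 with trametinib (7 to 9). Values not past the test changed sign as follows: the CTSH difference was -0.0365 under limma-voom and ran from -0.238 to 0.453 with a library left out; CTSD between the trametinib groups was 0.0017 with DESeq2's size factors, 0.0092 with library size only and 0.0015 under DESeq2, and ran from -0.0234 to 0.0192 with a library left out. With a library left out, CTSK in KP4 ran from -0.186 to 0.0054 (without KP4 DMSO replicate 2), and CST3 in MiaPaca2 from -0.131 to 0.0581 (without MiaPaca2 DMSO replicate 3). The differences of CTSV and MITF lost their calls without KP4 trametinib replicate 1 (adjusted p = 0.0787 and 0.0684). That of CD74 lost its call when any 1 of 7 libraries was left out, with adjusted p-values up to 0.226 (without KP4 DMSO replicate 3). Its log2 value was then as low as 0.426 (without MiaPaca2 DMSO replicate 2, adjusted p = 0.204). The CD74 call was also lost with the replicate block (adjusted p = 0.0585). CST3 in KP4 gained a call with only the KP4 libraries in the fit (0.0495). Where a call changed, the cause was not tested.

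Nothing in the labels says that replicate numbers pair the libraries. Deviations of same-numbered libraries correlated at -0.025 to 0.031, and 9 of 18 correlated best with their own number. With so few libraries per group, such weak correlations cannot show whether the numbers mark pairs. With the replicate block, 7, 8, 7, 9 and 8 cathepsins passed in the 5 comparisons above, and 7717 genes passed in KP4 and 10320 in MiaPaca2. Depth limits CTSS, with 5 counts in MiaPaca2 with DMSO, and CTSH and CTSZ in KP4, with 31 to 153 counts per group.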
